A study of Oryza sativa with 8 samples.

Results

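The genes described here encode the salt overly sensitive (SOS) pathway of rice and the NHX sodium antiporters, 7 genes of the 55797 compared across all libraries. They were chosen by identifier: SOS1 (LOC_Os12g44360), CIPK24, also called SOS2 (LOC_Os06g40370), CBL4, also called SOS3 (LOC_Os05g45810), and NHX1 to NHX4 (LOC_Os07g47100, LOC_Os05g05590, LOC_Os11g42790 and LOC_Os06g21360). The deposited tables hold identifiers only, so the symbols are those under which the genes were selected and were not checked against an annotation. RNA was sequenced from leaves and roots of 2-week-old seedlings of the cultivar Nipponbare, grown in liquid culture in cut-bottomed PCR plates. Each tissue was taken with and without salt, in 2 libraries per group, which gives 4 groups. Control plants stayed in normal medium, and salt plants were collected 24 hours after the start of a treatment with 150 mmol NaCl, a dose that the labels give without a volume. The groups follow the sample titles, because a separate tissue entry names shoot for the root libraries and seedling for the leaf ones. The labels call the replicates biological but do not say what each was made from, so p-values measure only the spread between these libraries, which may be technical.

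Plants keep sodium low in the cytosol by exporting it from the cell and by storing it in the vacuole. SOS1 is the sodium/proton antiporter of the plasma membrane that exports sodium. CBL4 is a calcium sensor that binds the protein kinase CIPK24, and the complex activates SOS1. NHX proteins exchange sodium or potassium for protons at the membrane of the vacuole. The pathway was first worked out in Arabidopsis, and the rice proteins were found to work together when expressed in yeast. Much of this regulation acts on the proteins themselves, and transcript levels do not measure it.

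Values are FPKM, fragments scaled for transcript length and library depth, as deposited for each library. Of the 7 genes, 6 stood at 2.35 FPKM or more in every library and were tested, and NHX4 stayed under the filter of 1 FPKM in 2 libraries and was not tested. Changes were tested with limma on log2(FPKM + 1) over 23776 genes, and a change was called where the p adjusted by Benjamini and Hochberg's method was under 0.05. The confidence bounds of the files imply between 9060000 and 10700000 fragments per library, summed over genes, as an approximation described below. None of the 7 loci overlaps another annotated locus. Marker genes could not be assigned to identifiers, so the tissue labels were not checked against markers. Root libraries were compared over 176 genes with at least 100 FPKM in both leaf control libraries and a mean over the 4 root libraries under 2% of the leaf control mean. Their median stood at 1.19% of the leaf level in root control replicate 1 and at 0.264% to 0.368% in the other root libraries. The rule caps the mean over root libraries, so these values describe how the libraries differ from each other and not how much leaf RNA they hold. In whole organs, fewer cells of a type and less RNA per cell cannot be told apart.

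Salt raised CBL4 and NHX1 in both tissues, moved CIPK24 up in leaf and down in root, and raised NHX2 in root. SOS1 and NHX3 did not pass the test in either tissue. In leaf 3 of the 6 tested genes rose and 0 fell by limma, with 0 lower at an unadjusted p under 0.05 as well, where 14.8% of all tested genes rose and 18.9% fell. In root 3 rose and 1 fell, against 29.1% and 14.4% of all tested genes. The salt response differed between the tissues for 3 of the 6, against 32.8% of all. In the controls 3 were higher and 2 lower in root, against 39.1% and 28.3%, and under salt 2 were higher and 2 lower, against 47.7% and 24.5%. With 6 genes these counts do not set the group apart. The salt libraries did not overlap the controls for 5 of the 6 genes in leaf and 5 of the 6 in root, which holds for 69.3% and 71.1% of all tested genes. The median log2 change of the 6 was 0.34 in leaf and 0.41 in root, and that of all tested genes was -0.05 and 0.13. The balance of calls over all genes depended on the scaling of libraries. In root 67.0% of the called genes rose on the scale as deposited, 51.2% when 75th percentiles were made equal and 47.2% after quantile normalization. In the same order, 70.4%, 55.0% and 48.4% of the genes whose response differed were more positive in root, and 66.1%, 58.5% and 55.2% of those that differed between tissues under salt were higher in root.

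The levels spanned much of the range of expressed genes. SOS1 stood between the percentiles 81.9 and 84.0 of the 23776 tested genes in leaf libraries and between 94.5 and 96.4 in root libraries. CIPK24 ranged from percentile 61.7 in a leaf control to 87.8 in a root control. CBL4 lay lowest of the tested genes in leaf, from 27.1 in a control to 49.3 in a salt library. NHX1 moved most, from 32.7 in a root control to 93.9 in a leaf salt library, and NHX3 least, from 66.3 to 77.2. Replicates mostly agreed within the deposited bounds. Of 24 pairs of replicates of the 6 tested genes, 5 lay further apart than their bounds, and all 5 were root pairs. These were SOS1 in root salt, CIPK24 in root control and in root salt, NHX1 in root salt, and NHX3 in root control. The share of such pairs was not computed over all tested genes. Whether these genes or the root libraries stand out in this was therefore not tested.

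**Figure D1:**
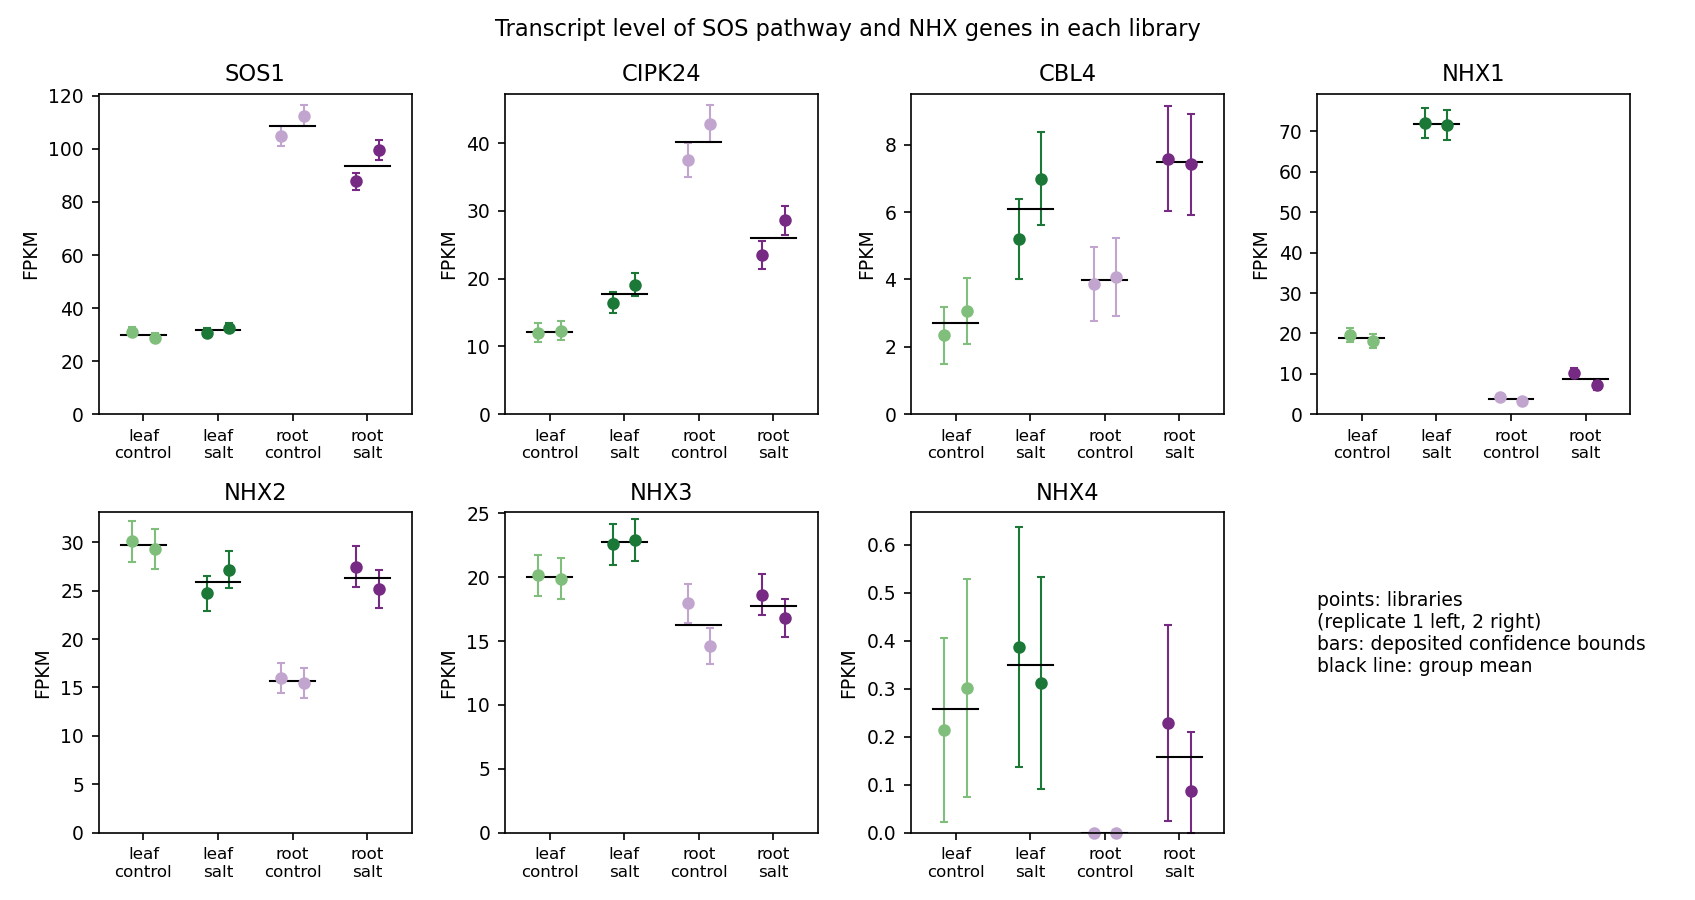
FPKM of the 7 genes in each library, with the deposited confidence bounds as bars and the group mean as a black line. SOS1 and CIPK24 are highest in root control, NHX1 in leaf salt, and NHX4 stays under 0.4 FPKM in all 8 libraries.

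SOS1 (chromosome 12, 27494401 to 27508851) was higher in root than in leaf, and its salt changes did not pass the test. Leaf control libraries had 31.1 and 28.9 FPKM, and leaf salt libraries had 30.7 and 32.6. Root control libraries had 105 and 112 FPKM, and root salt libraries had 87.7 and 99.6. All root libraries lay above all leaf libraries, the leaf groups overlapped, and both root salt libraries lay below both root controls. The change under salt on the log2(FPKM + 1) scale was 0.08 in leaf (95% interval -0.15 to 0.30, limma adjusted p = 0.597) and -0.21 in root (95% interval -0.44 to 0.01, limma adjusted p = 0.115). Neither passed the threshold, and the intervals allow a small change in either tissue. The root call depended on how libraries were scaled. When 75th percentiles were made equal the root change was -0.39 (limma adjusted p = 0.0135), and with quantile normalization it was -0.33 (limma adjusted p = 0.0272). The difference of the salt response, root minus leaf, was -0.29 (limma adjusted p = 0.146) and passed only under the former scaling (-0.49, limma adjusted p = 0.0288).

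CIPK24 (chromosome 6, 24038926 to 24044791), the kinase of the pathway, rose in leaf and fell in root. It had 12.1 and 12.3 FPKM in leaf control and 16.5 and 19.1 in leaf salt. In root it had 37.5 and 42.8 FPKM without salt and 23.5 and 28.6 with salt. The groups did not overlap in either tissue, and the gap between root and leaf narrowed under salt. In leaf the mean FPKM was 1.46-fold higher with salt, a log2 change of 0.51 ± 0.128 (SE, limma adjusted p = 0.0227). In root the control mean was 1.54-fold the salt mean, a log2 change of -0.61 ± 0.128 (SE, limma adjusted p = 0.009). The salt response itself differed between the tissues by -1.12 ± 0.181 (SE, root minus leaf, limma adjusted p = 0.00518). Across all 17 alternative analyses this difference passed the threshold, with values from -1.31 to -0.95. The fit to only the groups compared, counted among the 17, repeats the main fit for every difference of responses, which uses all 4 groups. The call of the rise in leaf was less secure. It missed the threshold without either leaf control library (replicate 1 or 2) or without leaf salt replicate 2, with changes of 0.49, 0.52 and 0.41. Each of these fits leaves 1 library in a group, and in each fewer genes were called over all tested genes as well.

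CBL4 (chromosome 5, 26535878 to 26537911), the calcium sensor, rose in both tissues from the lowest level of the pathway genes. Leaf libraries had 2.35 and 3.06 FPKM without salt and 5.20 and 7.0 with salt. Root libraries had 3.87 and 4.08 FPKM without salt and 7.59 and 7.41 with salt. Salt libraries were higher than control libraries in both tissues without overlap. The mean FPKM was 2.25-fold higher with salt in leaf and 1.89-fold higher in root. On the log2 scale the changes were 0.93 ± 0.162 and 0.77 ± 0.162 (SE, limma adjusted p = 0.00524 and 0.00884). The size of these changes depended on the pseudocount, as it does for low genes, and with 5 in place of 1 they were 0.52 and 0.48. The difference of the responses, root minus leaf, was -0.16 (95% interval -0.71 to 0.39, limma adjusted p = 0.632), an interval that holds both equal and unequal responses.

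**Figure D2:**
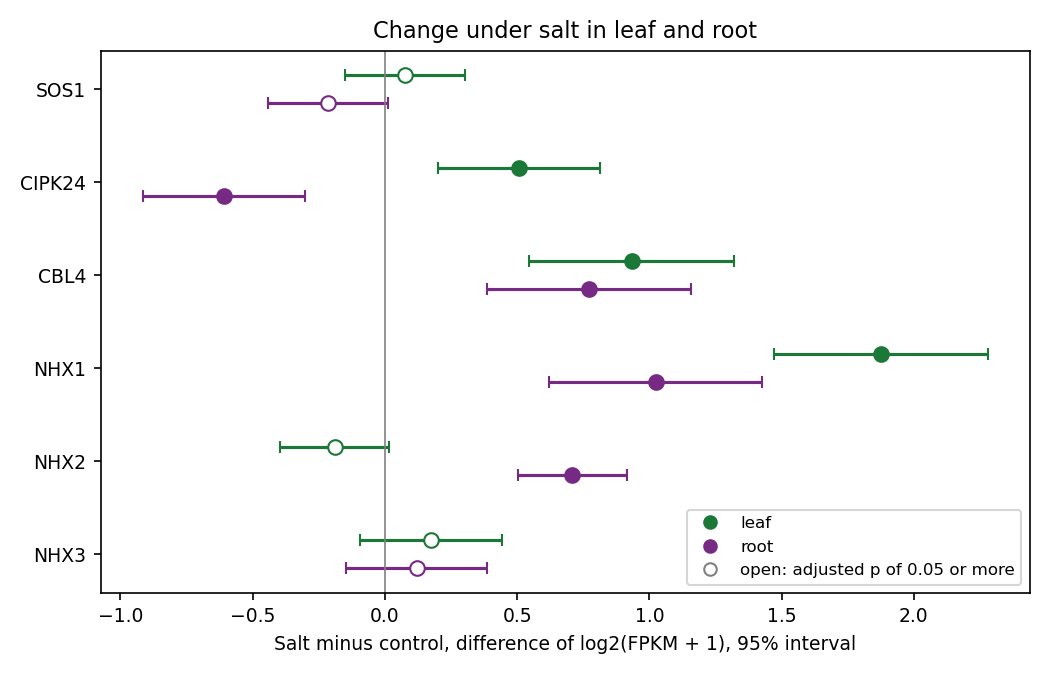
Change under salt of the 6 tested genes in leaf and root, as the difference of log2(FPKM + 1) with its 95% interval from limma; filled points have an adjusted p under 0.05. CIPK24 lies at 0.51 in leaf and -0.61 in root, NHX2 at -0.19 and 0.71, and CBL4 and NHX1 lie above 0 in both tissues.

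Ratios between genes of 1 library do not change when the library is multiplied by a common factor, though quantile normalization can move them. The ratio of SOS1 to CIPK24 was 2.58 and 2.35 in leaf control and 1.87 and 1.71 in leaf salt. In root it went the other way, from 2.80 and 2.62 without salt to 3.74 and 3.48 with salt. The groups did not overlap within either tissue, while the leaf and root controls lay close together. For CIPK24 over CBL4, the kinase over its sensor, root libraries had ratios of 9.67 and 10.5 without salt and 3.09 and 3.86 with salt. Leaf libraries had 5.14 and 4.01 without salt and 3.17 and 2.73 with salt. The root controls thus stood apart, and the root salt libraries lay within the range of the leaf libraries.

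**Figure D3:**
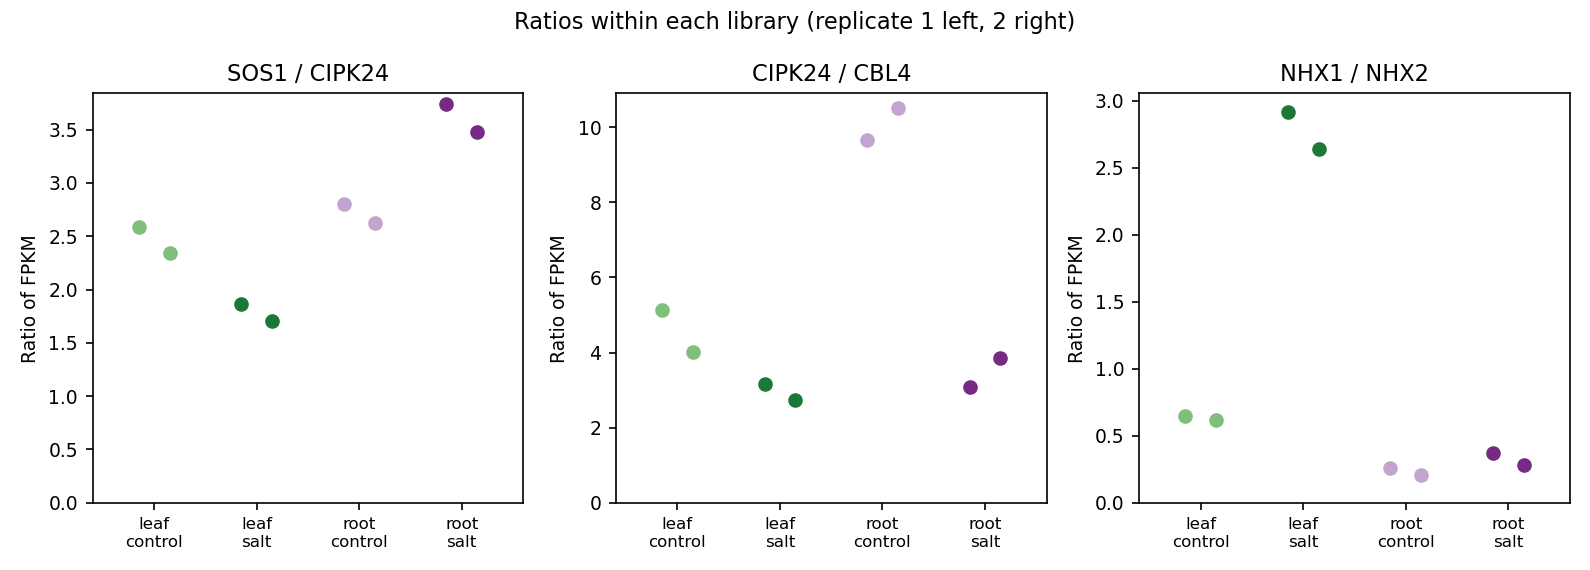
Ratios of FPKM between 2 genes within each library, by group. SOS1 over CIPK24 is lower with salt in leaf and higher with salt in root, CIPK24 over CBL4 is highest in root control (9.67 and 10.5), and NHX1 over NHX2 is highest in leaf salt (2.92 and 2.64).

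NHX1 (chromosome 7, 28164412 to 28169335), a sodium/proton antiporter of the vacuole, had the largest salt change among the 6 tested genes in both tissues. Leaf libraries had 19.5 and 18.2 FPKM without salt and 72.1 and 71.5 with salt. Root libraries had 4.19 and 3.21 FPKM without salt and 10.1 and 7.12 with salt. The salt libraries lay above the controls in each tissue, and even the root salt libraries stayed below the leaf controls. The mean FPKM was 3.81-fold higher with salt in leaf, with single pairs of libraries between 3.66 and 3.97, and 2.33-fold higher in root, with single pairs between 1.70 and 3.16. The log2 changes were 1.88 ± 0.169 in leaf and 1.02 ± 0.169 in root (SE, limma adjusted p = 0.00038 and 0.00341). In leaf this placed NHX1 at rank 340 from the top of 23776 genes, and in root at rank 2420. With a pseudocount of 5 the root change was 0.64.

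The larger response of NHX1 in leaf passed the test of the difference, but narrowly. The change in root minus that in leaf was -0.85 ± 0.239 (SE, limma adjusted p = 0.0345). It missed the threshold in 8 of 17 alternative analyses, with limma adjusted p up to 0.102. These were a pseudocount of 0.1 (-0.73), no filter on low genes (-0.85), and leaving out any 1 of 6 libraries. Without replicate 1 and 2 of leaf control the difference was -0.90 and -0.80, and without replicate 1 and 2 of leaf salt it was -0.85 and -0.86. Without root control replicate 1 it was -0.70, and without root salt replicate 2 it was -0.62. The root replicates of NHX1 also differed more than their deposited bounds, 8.86 to 11.4 FPKM in root salt replicate 1 against 6.09 to 8.15 in replicate 2. Without root control replicate 1, the root library in which the 176 leaf genes were highest, the root change of NHX1 was 1.18 (limma adjusted p = 0.00742).

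NHX2 (chromosome 5, 2777359 to 2783546), a second antiporter of the vacuole, rose in root and did not pass the test in leaf. Root control libraries had 16.0 and 15.5 FPKM, and root salt libraries had 27.5 and 25.2. Leaf control libraries had 30.1 and 29.3 FPKM, and leaf salt libraries had 24.7 and 27.1. Salt libraries lay above the controls in root and below them in leaf, without overlap. The root mean was 1.68-fold higher with salt, a log2 change of 0.71 ± 0.0866 (SE, limma adjusted p = 0.00104). In leaf the log2 change was -0.19 (95% interval -0.40 to 0.02, limma adjusted p = 0.14). The response differed between root and leaf by 0.90 ± 0.122 (SE, limma adjusted p = 0.00279), and this difference passed in all 17 alternative analyses, with values from 0.71 to 0.96. As for CIPK24, the fit to only the groups compared repeats the main fit here. With salt the root and leaf levels of NHX2 met on the scale as deposited, at 26.3 ± 1.63 and 25.9 ± 1.72 FPKM (SD, n = 2). Over the 17 alternatives their log2 difference under salt, root minus leaf, ran from -0.18 to 0.09.

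NHX3 (chromosome 11, 25768465 to 25772569) was the most even in level of the tested genes NHX1, NHX2 and NHX3. Leaf libraries had 20.1 and 19.9 FPKM without salt and 22.6 and 22.9 with salt. Root libraries had 17.9 and 14.6 FPKM without salt and 18.6 and 16.8 with salt. The leaf groups lay apart by a small step, and the root groups overlapped. The log2 changes were 0.17 in leaf (95% interval -0.09 to 0.44, limma adjusted p = 0.283) and 0.12 in root (95% interval -0.15 to 0.39, limma adjusted p = 0.431). The sign of the root value turned with equal 75th percentiles (-0.05) and with quantile normalization (-0.06), and it did not pass the test under any of the 17 alternatives. In root control the 2 libraries differed by 3.33 FPKM, more than their deposited bounds.

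NHX4 (chromosome 6, 12333262 to 12337541) was close to the limit of detection in every library. Leaf libraries had 0.214 and 0.301 FPKM without salt and 0.387 and 0.313 with salt. Both root control libraries list the gene at 0, and root salt libraries had 0.228 and 0.0871. The deposited bounds imply 5 and 7 fragments in leaf control, 9.59 and 8 in leaf salt, and 5 and 1.99 in root salt. When the filter was dropped, the log2 change of NHX4 under salt was 0.10 in leaf and 0.21 in root. Neither passed the threshold (limma adjusted p = 0.391 and 0.0847). Both rest on these few fragments, and no fold is given against a group listed at 0.

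The summed FPKM of NHX1 to NHX4, which was not tested as a sum, was higher in the salt libraries than in the controls of the same tissue. It was 70.0 and 67.7 FPKM in leaf control and 120 and 122 in leaf salt. In root the sum was 38.1 and 33.3 FPKM in control and 56.5 and 49.2 with salt. In leaf control NHX2 held 43.0% and 43.3% of the sum and NHX1 27.9% and 26.9%. In leaf salt NHX1 held 60.2% and 58.7%, and the order of these genes was turned round. Root salt libraries had 17.9% and 14.5% NHX1, 48.7% and 51.2% NHX2 and 33.0% and 34.2% NHX3. NHX1 remained the smallest of these 3 in every root library, with 11.0% and 9.63% in root control. Under salt the leaf and root libraries were far apart in NHX1 and overlapped in NHX2. SOS1 exceeded the summed NHX level 2.75-fold and 3.38-fold in root control and 1.55-fold and 2.02-fold in root salt. In leaf SOS1 was 0.445 and 0.427 of that sum without salt and 0.257 and 0.268 with salt.

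**Figure D4:**
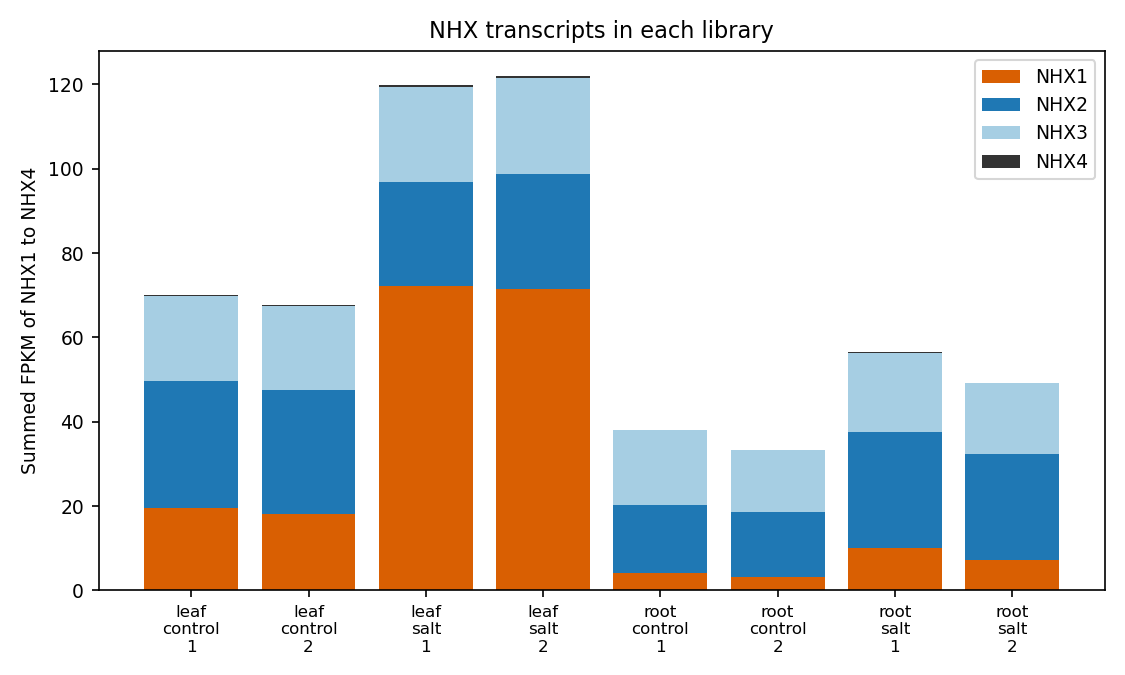
Summed FPKM of NHX1, NHX2, NHX3 and NHX4 in each library, stacked by gene. The leaf salt bars reach 120 and 122 FPKM with 60.2% and 58.7% from NHX1, and NHX1 is the smallest of the first 3 genes in every root bar.

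Root and leaf differed in the SOS genes in one direction and in NHX1 and NHX2 in the other. Without salt, SOS1 was 3.62-fold and CIPK24 3.30-fold higher in root by mean FPKM, with log2 differences of 1.82 ± 0.0953 and 1.64 ± 0.128 (SE, limma adjusted p = 4.99e-06 and 3.4e-05). NHX1 was 5.10-fold and NHX2 1.89-fold higher in leaf, with log2 differences, root minus leaf, of -2.09 ± 0.169 and -0.88 ± 0.0866 (SE, limma adjusted p = 4.11e-05 and 0.000111). CBL4 was 1.47-fold higher in root, and its log2 difference of 0.43 was at the edge of the threshold (limma adjusted p = 0.0498). NHX3 had a log2 difference of -0.29 that missed it (limma adjusted p = 0.0554). The CBL4 call was lost in 8 of 17 alternative analyses, with limma adjusted p up to 0.237. Among these were leaving out leaf control replicate 1 (0.29), root control replicate 1 (0.46), root control replicate 2 (0.40), and either root salt library (0.43 each). NHX3 passed without root control replicate 1 (-0.43, limma adjusted p = 0.0153).

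Under salt the difference between root and leaf was smaller for CIPK24 and NHX2, by the tests of the difference of responses given above. It was larger for NHX1, where that test passed narrowly and missed the threshold in 8 of 17 alternative analyses. SOS1 remained 2.96-fold higher in root, and CIPK24 was 1.46-fold higher there, with log2 differences of 1.53 and 0.52 (limma adjusted p = 1.04e-05 and 0.00858). NHX1 was 8.33-fold higher in leaf, or -2.94 ± 0.169 on the log2 scale (SE, limma adjusted p = 7.27e-06). NHX3 was 1.28-fold higher in leaf (-0.34, limma adjusted p = 0.0281). NHX2 differed by 0.02 (95% interval -0.18 to 0.23, limma adjusted p = 0.835) and CBL4 by 0.27 (95% interval -0.11 to 0.66, limma adjusted p = 0.17). The CIPK24 call was lost after quantile normalization (0.32, limma adjusted p = 0.0504) and without leaf salt replicate 1 (0.42, limma adjusted p = 0.057). The NHX3 call was lost without leaf salt replicate 1 (-0.35), leaf salt replicate 2 (-0.33) or root salt replicate 2 (-0.27).

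Ordered by mean FPKM over the 4 groups, SOS1 and CIPK24 ran from root control through root salt and leaf salt down to leaf control. In the main analysis every step of that order passed its test for CIPK24, while for SOS1 neither step within a tissue did. The contrast is not a firm one. The CIPK24 step in leaf lost its call in 3 of 17 alternative analyses, and its step between tissues under salt in 2. The SOS1 step in root passed under 2 alternative scalings. NHX1 ran from leaf salt through leaf control and root salt to root control. The step from leaf control to root salt, which crosses both tissue and treatment, was not tested for any gene, and neither was that from leaf salt to root control. CBL4 ran from root salt through leaf salt and root control to leaf control, and its root and leaf levels under salt were not told apart. NHX2 ran from leaf control through root salt and leaf salt, which overlapped, to root control. In both leaf salt libraries NHX1 was the highest of the 7 genes, and in all 4 root libraries SOS1 was. Leaf control was led by SOS1 in replicate 1 and by NHX2 in replicate 2.

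**Figure D5:**
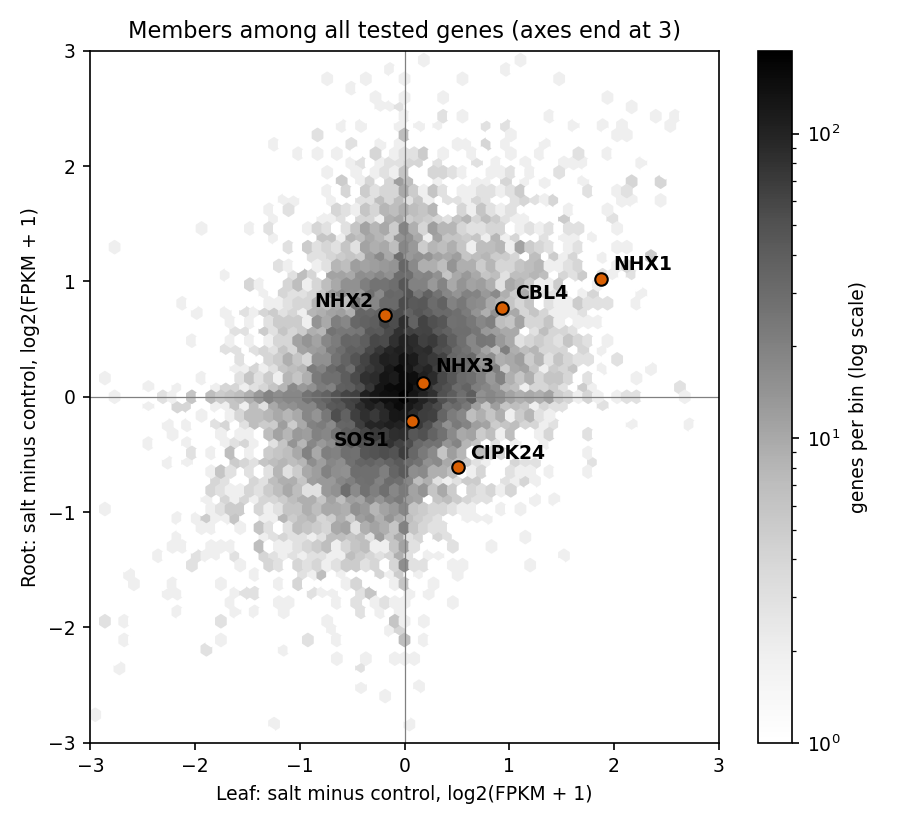
Change under salt in leaf (horizontal) and root (vertical) on the log2(FPKM + 1) scale, with all tested genes as grey bins and the 6 tested genes as orange points; 317 genes lie beyond the axes. NHX1 and CBL4 lie to the upper right, CIPK24 to the lower right, and SOS1 and NHX3 in the dense centre.

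Likeness of pattern was measured as the root mean square difference between centred log2(FPKM + 1) means of the 4 groups. It is not scaled for the size of change, so genes that vary little come out close. Among the 6 genes, NHX2 and NHX3 were closest, at 0.25, followed by SOS1 and CIPK24 at 0.36, and SOS1 and NHX1 were farthest apart, at 2.23. The salt changes within these close pairs still differed in value, in sign for NHX2 and NHX3 in leaf and only in size for SOS1 and CIPK24. No test compared 1 gene with another. NHX2 changed by -0.19 in leaf and 0.71 in root, and NHX3 by 0.17 and 0.12. SOS1 changed by 0.08 and -0.21, and CIPK24 by 0.51 and -0.61. Of the other 23770 tested genes, LOC_Os07g36190 (chromosome 7, 21625619 to 21628826) was closest to NHX1, at 0.065. It had 90.3 and 89.1 FPKM in leaf control, 310 and 302 in leaf salt, 20.0 and 17.0 in root control and 36.8 and 38.3 in root salt. Only 2 genes came within 0.1 of NHX1. For SOS1, 59 genes came within 0.1, and the closest was LOC_Os11g06140 (chromosome 11, 2925595 to 2929173) at 0.019. That gene is listed at 0 in 3 of the 4 leaf libraries and had 2.01 to 2.61 FPKM in root, in the range where the log2(FPKM + 1) scale is compressed.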

How the data were processed

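Deposited values were FPKM per gene and library with lower and upper confidence bounds, in the Cufflinks tracking format per the file headers. TopHat2 2.0.13, Cufflinks 2.2.1 and Cuffdiff are named in the submitters' processing notes. The genome build, the annotation and the strandedness were not given in the sources used here. Coordinates are those of the files with 1 added to each start. Of 55806 entries on chromosomes, 9 under 4 repeated identifiers were left out. Genes reaching 1 FPKM in at least 2 libraries were tested on log2(FPKM + 1) with limma 3.58.1 in R 4.3.3, with 4 group means, all 8 libraries and a variance trend, and Benjamini-Hochberg adjustment. The fit was checked on simulated data. The implied number of fragments is the square of 2 × FPKM over the distance to the upper bound. This takes the bounds as counting error alone and is approximate. Of the implied numbers from 1.5 to 200, between 39.2% and 42.0% per library lay within 0.02 of a whole number.

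The 7 genes and the choice of tests were made with earlier results of these data known. Named were the 7 genes and the tested gene most like SOS1 and NHX1. None of the 55797 identifiers matched the RefSeq gene table of assembly ASM3414082v1 (0 matches), so lists of other CBL, CIPK, NHX and proton pump genes (50 identifiers with tissue markers) were not used. Alternatives covered the pseudocount, filter, scaling, model, replicate block, variance trend and each library left out.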

Additional observations from a re-analysis of the deposited data

Results flagged for a closer look

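The salt response differed between root and leaf, by the limma test of that difference, for 3 of the 6 tested genes, against 32.8% of all tested genes. The difference, root minus leaf, was -1.12 for CIPK24, -0.85 for NHX1 and 0.90 for NHX2 on the log2(FPKM + 1) scale. For CIPK24 and NHX2 the leaf and root values had opposite signs, although the leaf value of NHX2 did not pass its own test. NHX1 was higher with salt in both tissues, so its difference is one of size, and it missed the threshold in 8 of 17 alternative analyses.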

How the results depend on the processing

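Across 17 alternatives for each of 30 gene and comparison pairs, 510 values in all, 481 kept their side of the threshold, 24 lost a call, 5 gained one and none that was called changed sign. For the difference of responses, the fit to only the groups compared is the main fit again. It is counted among those that kept their side. Among all tested genes, 14.8% rose and 18.9% fell in leaf, 29.1% rose and 14.4% fell in root, and the response differed for 32.8%. In root against leaf, 39.1% were higher and 28.3% lower without salt, and 47.7% and 24.5% with salt. Of the 6 tested genes, the count called was 3 in leaf and 4 in root under salt. It was 3 for the difference between them, and 5 and 4 for root against leaf without and with salt. With 1 library left out these counts ranged from 2 to 3, from 4 to 4, from 2 to 3, from 4 to 5 and from 2 to 4. The lowest of the last, 2 genes, came without leaf salt replicate 1. Under the replicate block the counts were 3, 4, 3, 6 and 4, and NHX3 was the gene gained (limma adjusted p = 0.0489). Replicate numbers are not said to pair libraries, and deviations of same-numbered libraries correlated between -0.02 and 0.21 over genes. With no filter, NHX4 was tested and called lower in root than in leaf, from the few fragments given above. The difference was -0.33 without salt (limma adjusted p = 0.0119) and -0.22 with salt (limma adjusted p = 0.0429). Root control is listed at 0, so the size of the former rests on the 1 added to each FPKM. Over all tested genes, 8027 were called in leaf, and 5330 without leaf control replicate 1. Without replicate 1 and 2 of leaf salt, 5344 and 5185 were called. Depth limits NHX4 and, less so, CBL4, whose implied fragments ran from 31 to 103.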
